A study of Mus musculus with 9 samples.

Results

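The 35 genes described here are the glycolysis and hypoxia response genes of HEI-OC1 cells, chosen by gene symbol from a table of 55451 genes. They comprise 16 glycolytic enzymes, 3 transporters of glucose and lactate, 3 regulators of glycolytic flux, 12 targets of hypoxia-inducible factor (HIF) that are not glycolytic, and Hif1a, which encodes an oxygen-regulated HIF subunit. HEI-OC1 is a conditionally immortalised line from mouse cochlea, labelled as a cochlear hair cell line, and it was grown as a monolayer in serum-supplemented medium. RNA sequencing covered 9 libraries: 3 from cells transduced with LMX1A carrying the c.915dup variant (c915dup), 3 from cells transduced with LMX1A WT (WT) and 3 from cells transduced with the empty vector (EV). LMX1A is a LIM-homeodomain transcription factor, and all 3 groups share the line, the culture and a transduction. The labels name no low-oxygen or low-glucose treatment, and they give neither the promoter that drives the transgene nor whether cells were pooled or cloned. Nothing in them ties a library to a culture of its own, so the spread behind the p-values is that among libraries and may be technical.

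Glycolysis splits glucose into pyruvate in a chain of cytosolic enzymes, most of which exist as several isozymes with their own genes, and lactate dehydrogenase then turns pyruvate into lactate. HIF is a transcription factor whose alpha subunit is hydroxylated by oxygen-sensing EGLN enzymes and degraded when oxygen is plentiful; when oxygen is short it binds promoters and enhancers with a short core motif and raises genes of glycolysis, blood vessel growth, mitophagy and collagen maturation. HIF control of the alpha subunit is mainly at the protein level, which transcript levels do not measure. Cochlear cells are known to depend on a steady supply of glucose and oxygen from the vessels of the lateral wall.

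Human LMX1A stood at 149 to 170 FPKM in c915dup, at 131 to 133 FPKM in WT and was listed at 0 in EV, and mouse Lmx1a was listed at 0 in all 9 libraries. FPKM is a level per length of transcript and per 1e6 fragments. Estimated depth was 13.0 to 16.1 (in units of 1e6 fragments) per library. The library numbered 1 of each group stood apart from the other 2: mitochondrial genes took 4.36% to 5.49% of FPKM there and 1.69% to 2.17% in the other 6 libraries, and principal component 1, with 42.5% of the variance, separated them. Of 13 hair cell markers, 7 were listed at 0 in all libraries and 12 stayed under 0.5 FPKM, with Myo6 the exception, whereas 10 of 10 fibroblast and mesenchymal markers reached 1 FPKM. The labelled hair cell type is therefore not visible in its defining markers, and summed mesenchymal markers were 2002 to 2078 FPKM in c915dup, 1980 to 2185 FPKM in WT and 1970 to 2120 FPKM in EV.

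The main transcripts of the steps from aldolase to lactate dehydrogenase were the most abundant members. Over all 9 libraries the pyruvate kinase gene Pkm averaged 800.5 FPKM, the lactate dehydrogenase gene Ldha 757 FPKM, the enolase gene Eno1 713 FPKM and the triose phosphate isomerase gene Tpi1 705 FPKM, and the ranges of neighbours in this order overlapped. Below Tpi1 came the aldolase gene Aldoa at 609 FPKM, the glyceraldehyde phosphate dehydrogenase gene Gapdh at 550 FPKM and the phosphoglycerate kinase gene Pgk1 at 533 FPKM, whose ranges overlapped in this order, whereas those of Tpi1 and Aldoa did not. Steps apart from their neighbours on both sides were the phosphoglycerate mutase gene Pgam1 at 291 FPKM and the glucose phosphate isomerase gene Gpi1 at 135 FPKM. Entry steps were lower: the glucose transporter gene Slc2a1 averaged 30.3 FPKM, the hexokinase genes Hk1 and Hk2 44.4 and 15.2 FPKM, and the phosphofructokinase genes Pfkl, Pfkm and Pfkp 62.6, 25.1 and 20.7 FPKM.

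Among the HIF targets the order ran from the mitophagy receptor gene Bnip3 at 77.3 FPKM, the collagen prolyl hydroxylase gene P4ha1 at 72.1 FPKM and the stress-response gene Ndrg1 at 64.3 FPKM to the carbonic anhydrase gene Car9 at 3.80 FPKM. Car9 was the lowest member that was tested, and the next one up in the order, Pfkfb3, overlapped with it in range. Aldoc, Slc2a3 and Slc16a3 averaged 0.749, 0.802 and 0.453 FPKM. These 3 genes, for a second aldolase, a second glucose transporter and a lactate exporter, did not reach 1 FPKM in 3 libraries and were not tested, which left 32 of the 35. Another lactate transporter gene outside the 35, Slc16a1, stood at 39.6 to 44.6 FPKM.

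**Figure D1:**
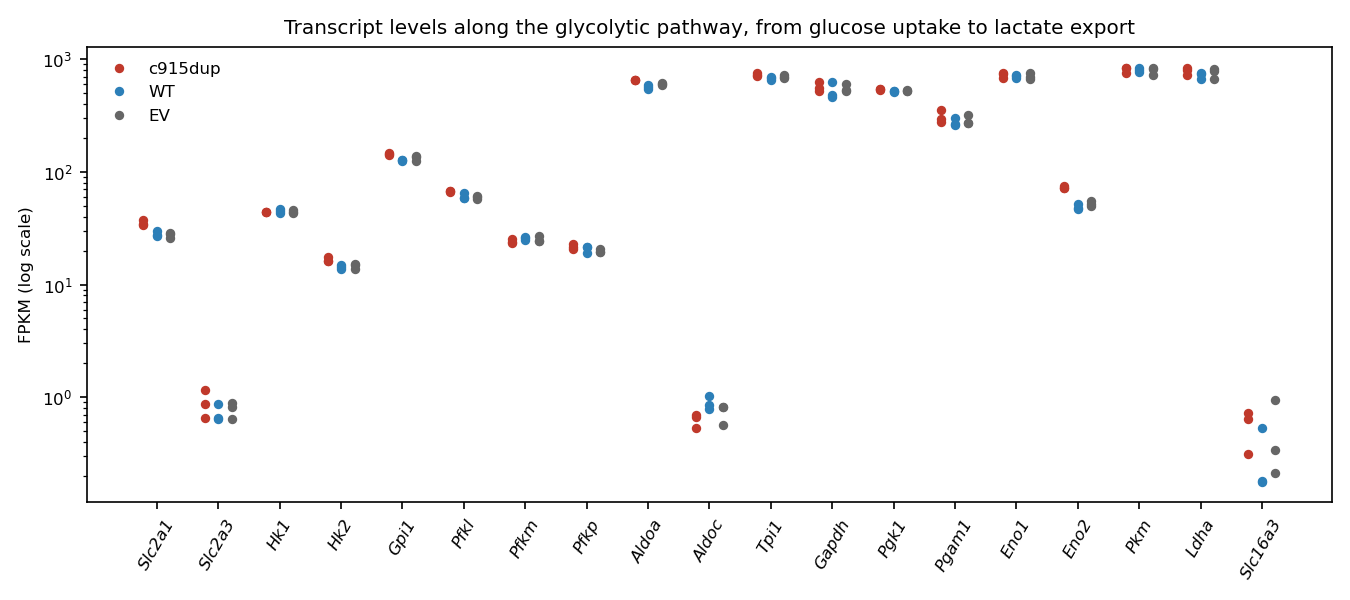
FPKM of the transporters and glycolytic enzymes on a log scale, in pathway order from glucose uptake to lactate export; each point is 1 library, with c915dup, WT and EV side by side. Aldoa, Tpi1, Eno1, Pkm and Ldha lie at the top, at means of 609 to 800.5 FPKM, whereas Slc2a3, Aldoc and Slc16a3 lie near or below 1 FPKM.

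Cells carrying c915dup had more transcript of the neuronal enolase gene Eno2, of the glucose transporter gene Slc2a1 and of the angiogenic factor gene Vegfa than EV cells, and less of Pfkfb3, whose enzyme makes the main activator of phosphofructokinase. In limma's test on log2(FPKM + 1), adjusted over all 11933 genes tested, 3 of the 32 tested members rose, 1 fell and 28 did not pass at an adjusted p under 0.05. Of all genes tested, 1.09% passed in this comparison, 0.964% upward and 0.126% downward. The Eno2 call held in all 9 fits that left out 1 library, the Pfkfb3 call in 7, the Slc2a1 call in 1 and the Vegfa call in none. In these bulk libraries a change in the number of expressing cells and a change of RNA per cell cannot be told apart. Set directly against WT, Eno2 rose and the other 31 tested members did not pass, with 0.226% of all genes passing and 0.218% upward. WT against EV gave no call among the 32 tested members in limma, with 3 at an unadjusted p under 0.05 (731 of all 11933 genes) and 0.352% of all genes passing. The 2 comparisons with EV share the EV libraries, and both comparisons of c915dup share its libraries, so that none of them is independent of the others.

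Counting members that passed and those that did not, many stood apart between the groups. The 3 c915dup libraries were above all 3 EV libraries for 12 of the 32 tested members and below them for 1, where 9.29% and 7.58% of all genes were so placed. They were above all 3 WT libraries for 17 members and below them for 1, beside 9.23% and 6.85% of all genes. WT was above EV throughout for none and below it for 5, beside 6.70% and 6.17%. Separation thus went mostly upward for c915dup and mostly downward for WT. The fitted difference was above 0 for 28 of 32 tested members between c915dup and EV (49.9% of all genes), for 27 between c915dup and WT (50.6%) and for 13 between WT and EV (47.8%). The members' median log2 difference was 0.12, 0.14 and -0.03 in these 3 comparisons, where the median of all genes lay between -0.0047 and 0.0016. Under the 3 other scalings of the libraries, 26 to 27 members stayed above 0 against EV and 26 to 27 against WT. Against EV, 23 were above 0 without EV library 1 and 24 without c915dup library 1. The other fits that left out 1 library gave 26 to 28 there.

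**Figure D2:**
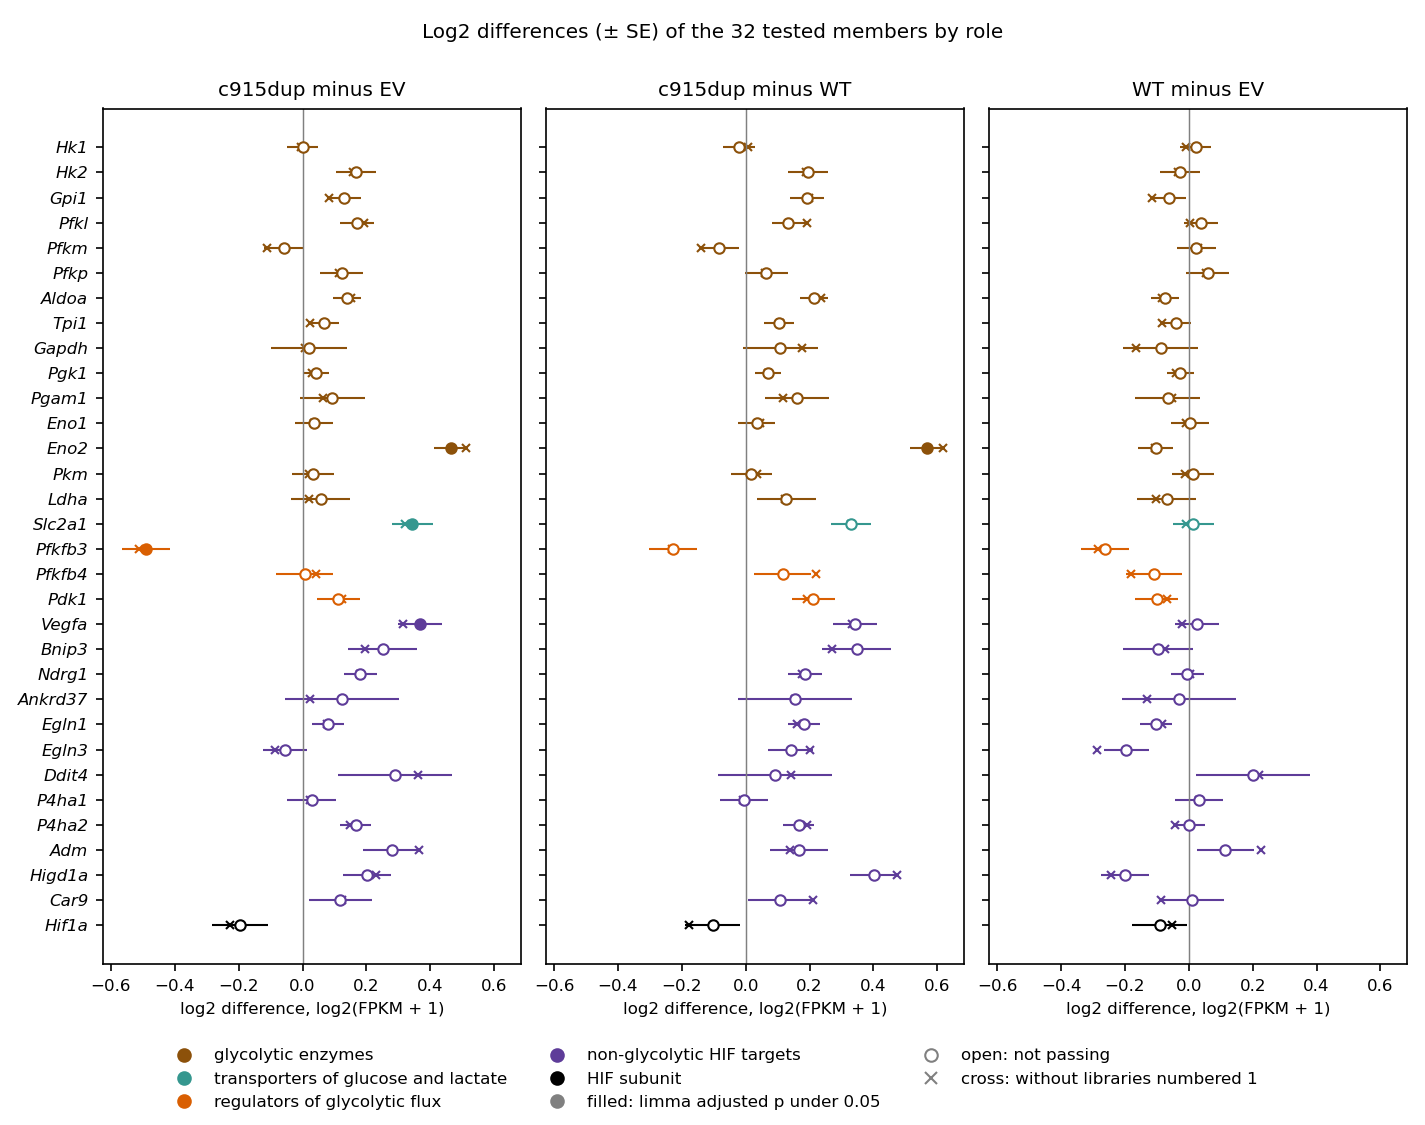
Log2 differences on the log2(FPKM + 1) scale (point, ± SE from limma) of the 32 tested members by role, for c915dup minus EV, c915dup minus WT and WT minus EV; filled points passed at an adjusted p under 0.05, and crosses give the value without the libraries numbered 1. Eno2 stands at 0.46 and 0.57 in the c915dup panels and at -0.10 in the WT panel, and Pfkfb3 lies below 0 in all 3.

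Of the glycolytic enzymes, Eno2 moved most. This gene (ENSMUSG00000004267, chromosome 6, 124760053 to 124769673) encodes the enolase isozyme known from neurons and neuroendocrine cells, which converts phosphoglycerate to phosphoenolpyruvate. It had 71.8, 74.3 and 72.2 FPKM in c915dup libraries 1, 3 and 4, against 51.4, 47.6 and 47.2 FPKM in WT and 55.2, 50.3 and 51.8 FPKM in EV. All 3 c915dup libraries lay above all 6 others, and WT and EV overlapped. The means were 72.7 ± 1.34, 48.7 ± 2.35 and 52.5 ± 2.51 FPKM (SD, n = 3 each). The log2 difference was 0.46 ± 0.05 (SE) from EV, with an adjusted p of 0.00287 in limma, and 0.57 ± 0.05 from WT, with an adjusted p of 0.0031. Both calls held when any of the 9 libraries was left out and under the 12 other alternatives, with adjusted p up to 0.0229 against EV and up to 0.0341 against WT. Between WT and EV Eno2 differed by -0.10 ± 0.05 and did not pass (adjusted p = 0.882).

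The main enolase gene did not follow. Eno1 averaged 724 ± 33.6 FPKM in c915dup, 707 ± 24.4 in WT and 707 ± 42.0 in EV (SD, n = 3 each), and its log2 difference was 0.04 ± 0.06 from EV and 0.03 ± 0.06 from WT. Eno2 made up 9.29%, 8.86% and 8.76% of summed enolase FPKM in c915dup, against 6.90%, 6.02% and 6.09% in WT and 7.53%, 6.18% and 6.77% in EV. The c915dup shares did not overlap with those of either other group. With 3 libraries against 3 an exact two-sided permutation test cannot go below p = 0.1, so these shares are given as values.

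Aldoa, Hk2, Gpi1 and Pfkl encode the aldolase, the inducible hexokinase, the isomerase and the liver-type phosphofructokinase of the upper pathway, and all 4 lay higher in each c915dup library than in each WT and EV library. Aldoa had 661, 659 and 657 FPKM in c915dup, against 587, 569 and 550 FPKM in WT and 610, 598 and 587 FPKM in EV. The 3 c915dup libraries were close together, and each stood above every other library. Its log2 difference of 0.21 ± 0.04 from WT had an adjusted p of 0.104 in limma, and that of 0.14 ± 0.04 from EV had 0.238. Without the libraries numbered 1, which left the other 2 of each group, the differences were 0.23 (adjusted p = 0.0102) and 0.15 (adjusted p = 0.0318), and both passed. In that reduced fit 3.08% of all genes passed against WT and 3.54% against EV.

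Hk2 had 17.5, 16.2 and 16.1 FPKM in c915dup, against 15.1, 14.3 and 13.8 FPKM in WT and 15.3, 14.9 and 13.9 FPKM in EV. WT and EV overlapped, c915dup lay above both, and neither difference passed (0.19 ± 0.06 from WT, adjusted p = 0.29, and 0.17 ± 0.06 from EV, adjusted p = 0.337). Gpi1 had 145, 149 and 143 FPKM in c915dup, against 128, 126 and 127 FPKM in WT and 124, 136 and 139 FPKM in EV. Here WT was the tightest group and EV the widest, and c915dup lay above both. The Gpi1 difference from WT was 0.19 ± 0.05 (adjusted p = 0.218), and 0.20 without the libraries numbered 1, where it passed (adjusted p = 0.0289). Pfkl had 66.0, 67.1 and 68.3 FPKM in c915dup, against 65.1, 59.1 and 59.3 FPKM in WT and 60.4, 60.5 and 57.7 FPKM in EV. Library 1 of WT came within 1 FPKM of the lowest c915dup library, and the other 5 stood further below. Its difference from EV was 0.17 ± 0.05 (adjusted p = 0.217), and 0.19 without the libraries numbered 1 (adjusted p = 0.04).

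Tpi1 and the remaining lower-pathway enzymes had smaller differences from EV than Aldoa, Hk2, Gpi1 and Pfkl. Against WT this order did not hold throughout, with 0.16 for Pgam1 and 0.13 for Pfkl. Pkm had 759, 838 and 832 FPKM in c915dup, against 766, 831 and 800 FPKM in WT and 732, 833 and 813 FPKM in EV. Ldha had 727, 797 and 843 FPKM in c915dup, against 663, 761 and 743 FPKM in WT and 664, 823 and 794 FPKM in EV. For both genes the library numbered 1 was the lowest of its group, and the groups overlapped. Gapdh showed the opposite order within groups, with 624, 552 and 520 FPKM in c915dup, 635, 483 and 465 FPKM in WT and 606, 536 and 528 FPKM in EV. Pgam1 had 355, 293 and 279 FPKM in c915dup, against 299, 264 and 263 FPKM in WT and 320.0, 273 and 274 FPKM in EV, with library 1 the highest of each group and the groups overlapping. Between c915dup and EV the log2 differences were 0.03 ± 0.07 for Pkm, 0.06 ± 0.09 for Ldha, 0.02 ± 0.12 for Gapdh, 0.07 ± 0.05 for Tpi1, 0.04 ± 0.04 for Pgk1 and 0.09 ± 0.10 for Pgam1, and none passed. With the errors of Ldha, Gapdh and Pgam1, a difference of the size measured for Aldoa could not be told from 0, so that these values do not show equal levels. Pgam1 passed against WT with a term for the libraries numbered 1 (0.16, adjusted p = 0.027), and Gapdh passed against WT without those libraries (0.17, adjusted p = 0.047). For Pgk1 too, each c915dup library lay above each WT and EV library. Its ranges were 539.13 to 550.69 FPKM in c915dup, 513.08 to 526.92 FPKM in WT and 525.36 to 538.55 FPKM in EV. For Tpi1, c915dup lay above WT throughout and overlapped with EV.

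Hk1, the constitutive hexokinase gene, had log2 differences of 0.00 ± 0.05 from EV and -0.02 ± 0.05 from WT in c915dup. Of the other phosphofructokinase genes, Pfkm, of the muscle type, had -0.06 ± 0.06 and -0.08 ± 0.06, and Pfkp, of the platelet type, had 0.12 ± 0.07 and 0.06 ± 0.07. None of these 3 passed in any comparison. Hk2 made up 28.3%, 26.9% and 26.7% of the FPKM of both hexokinase members in c915dup, against 24.4%, 24.2% and 24.3% in WT and 25.8%, 24.7% and 24.4% in EV. These c915dup shares lay above all others, while the Pfkl share of phosphofructokinase FPKM, at 57.8% to 60.7% in c915dup, overlapped with 55.5% to 58.4% in WT and lay above 56.5% to 57.2% in EV. The untested Aldoc stood at 0.532 to 0.692 FPKM in c915dup, 0.786 to 1.01 FPKM in WT and 0.564 to 0.819 FPKM in EV.

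**Figure D3:**
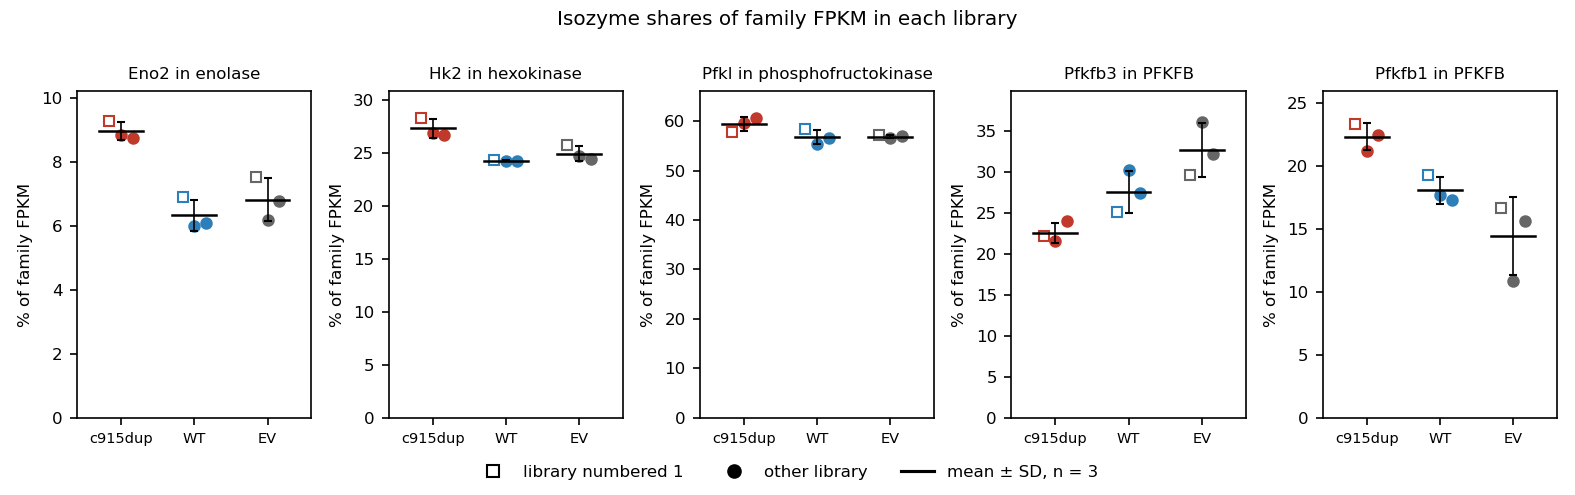
Share of summed family FPKM (percent) taken by Eno2, Hk2, Pfkl, Pfkfb3 and Pfkfb1 in each library; open squares are libraries numbered 1, filled circles the others, and lines give the mean ± SD (n = 3). Eno2 takes 8.76% to 9.29% of enolase FPKM in c915dup, and Pfkfb3 takes 21.6% to 24.0% of PFKFB FPKM there against 29.7% to 36.1% in EV.

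Of the transporters, Slc2a1 was measured well. It encodes GLUT1, the widely expressed glucose importer and a textbook HIF target (ENSMUSG00000028645, chromosome 4, 119108711 to 119137983). It had 37.5, 34.6 and 33.9 FPKM in c915dup, against 29.6, 27.4 and 26.8 FPKM in WT and 28.4, 26.1 and 28.4 FPKM in EV. The c915dup libraries lay above all others, and WT and EV overlapped. Slc2a1 rose by 0.34 ± 0.06 (log2, SE) over EV (adjusted p = 0.0391 in limma), and against WT the difference of 0.33 ± 0.06 had an adjusted p of 0.077. The call against EV held in 1 of the 9 fits that left out a library, that without WT library 1, and adjusted p reached 0.164 without EV library 2. It was also lost without the filter on low values (adjusted p = 0.119), in a fit of those 2 groups alone (0.103) and with a plain eBayes (0.0633). Without all 3 libraries numbered 1, both differences passed (0.32, adjusted p = 0.018, and 0.33, adjusted p = 0.0211). Slc2a3 stood at 0.655 to 1.15 FPKM in c915dup, 0.640 to 0.878 FPKM in WT and 0.643 to 0.895 FPKM in EV, and Slc16a3 at 0.313 to 0.728, 0.178 to 0.535 and 0.213 to 0.950 FPKM in the same order of groups.

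Of the regulators, Pfkfb3 fell. It encodes the kinase-dominated form of the bifunctional PFKFB enzymes (ENSMUSG00000026773, chromosome 2, 11471433 to 11554077). It had 3.77, 3.45 and 3.90 FPKM in c915dup, against 4.56, 4.67 and 4.30 FPKM in WT and 5.50, 6.07 and 5.29 FPKM in EV. The 3 groups did not overlap, with c915dup lowest, WT between and EV highest. The log2 difference of c915dup from EV was -0.49 ± 0.07 (adjusted p = 0.0147 in limma), that of WT from EV -0.26 ± 0.07 (adjusted p = 0.429) and that of c915dup from WT -0.23 ± 0.07 (adjusted p = 0.295). The call was lost without c915dup library 3 (adjusted p = 0.0715) and without EV library 2 (adjusted p = 0.0686), and it held in the other 7 of these 9 fits. It was also lost without the filter on low values (adjusted p = 0.0538) and in a fit of those 2 groups alone (adjusted p = 0.0674).

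Pfkfb4, a hypoxia-inducible relative, had 5.12, 5.71 and 5.20 FPKM in c915dup, against 5.54, 4.29 and 4.79 FPKM in WT and 5.39, 4.99 and 5.56 FPKM in EV, and the groups overlapped. Within the family, which also holds Pfkfb1 and Pfkfb2, Pfkfb3 took 22.2%, 21.6% and 24.0% of FPKM in c915dup, against 25.1%, 30.2% and 27.4% in WT and 29.7%, 36.1% and 32.2% in EV. Pfkfb1 took 23.3%, 21.2% and 22.4% in c915dup, 19.3%, 17.7% and 17.3% in WT and 16.7%, 10.9% and 15.6% in EV. The Pfkfb1 and Pfkfb3 shares thus ran in opposite orders over the groups. Pdk1, whose kinase keeps pyruvate out of the mitochondrial cycle, had 20.4, 18.9 and 18.3 FPKM in c915dup, against 17.0, 16.2 and 16.1 FPKM in WT and 19.2, 16.7 and 17.2 FPKM in EV. It lay above WT in each library and overlapped with EV, with log2 differences of 0.21 ± 0.07 (adjusted p = 0.284) and 0.11 ± 0.07 (adjusted p = 0.595).

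**Figure D4:**
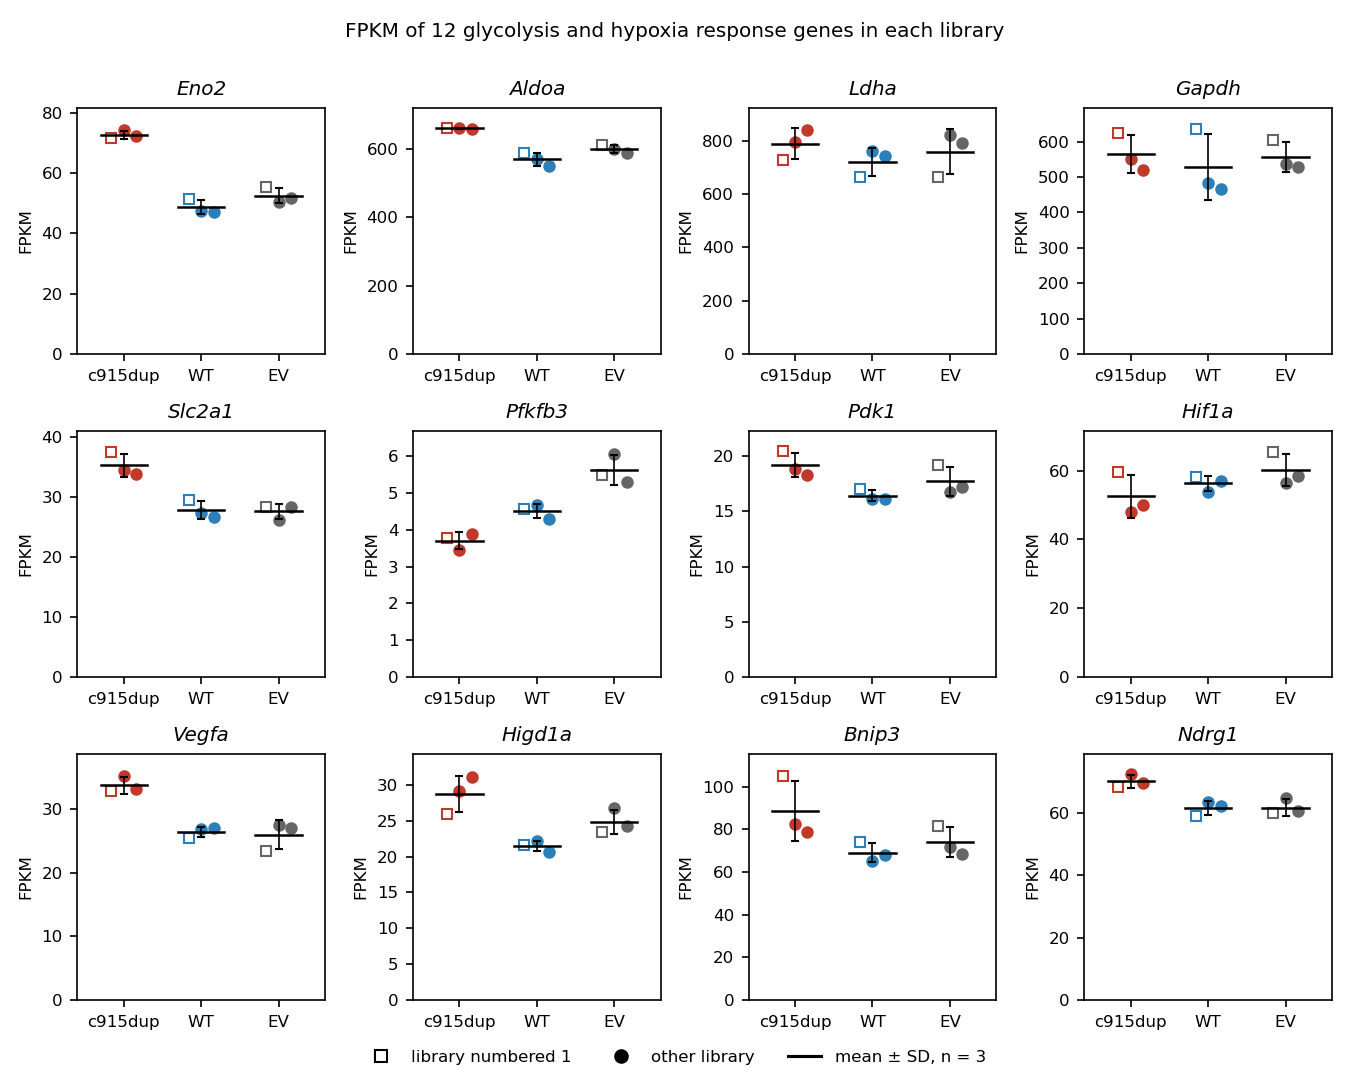
FPKM (axis from 0) of 12 members in each library; open squares are libraries numbered 1, filled circles the others, and lines give the mean ± SD (n = 3). Eno2, Aldoa, Slc2a1, Vegfa and Ndrg1 lie higher in each c915dup library than in each WT and EV library, Pfkfb3 lies lower, and Ldha, Gapdh and Hif1a overlap.

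Of the HIF targets outside glycolysis, Vegfa rose. It encodes the main growth factor for blood vessels (ENSMUSG00000023951, chromosome 17, 46016993 to 46032369). It had 32.9, 35.3 and 33.1 FPKM in c915dup, against 25.5, 26.8 and 27.0 FPKM in WT and 23.4, 27.5 and 27.1 FPKM in EV. The c915dup libraries lay above all others, and in each group the library numbered 1 was the lowest. Vegfa rose by 0.37 ± 0.07 (log2, SE) over EV (adjusted p = 0.0413 in limma), and its difference of 0.34 ± 0.07 from WT had an adjusted p of 0.0901. The call against EV was lost in all 9 fits that left out a library, with adjusted p between 0.0622 and 0.172, and under all 3 other scalings (0.0522 to 0.0787). It was also lost without the filter on low values (0.134), in a fit of those 2 groups alone (0.138) and with a plain eBayes (0.0656). Without the libraries numbered 1 both differences passed (0.31, adjusted p = 0.0148, and 0.33, adjusted p = 0.0159).

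Higd1a and Bnip3 encode mitochondrial proteins, a respiratory chain factor and a mitophagy receptor. Higd1a had 26.0, 29.1 and 31.0 FPKM in c915dup, against 21.6, 22.1 and 20.6 FPKM in WT and 23.4, 26.7 and 24.3 FPKM in EV. It lay above WT throughout and overlapped with EV, while WT lay below EV throughout. The log2 differences were 0.40 ± 0.08 from WT (adjusted p = 0.0714) and 0.20 ± 0.08 from EV (adjusted p = 0.328), and -0.20 ± 0.08 between WT and EV (adjusted p = 0.725). Bnip3 had 105, 82.4 and 78.8 FPKM in c915dup, against 73.9, 65.3 and 68.1 FPKM in WT and 81.7, 71.9 and 68.5 FPKM in EV. Library 1 was the highest of each group, and c915dup lay above WT throughout and overlapped with EV. Bnip3 differed by 0.35 ± 0.11 from WT (adjusted p = 0.276) and by 0.25 ± 0.11 from EV (adjusted p = 0.418). Without the libraries numbered 1, the differences from WT passed for both genes (Higd1a 0.47, adjusted p = 0.0131, and Bnip3 0.27, adjusted p = 0.023).

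Ndrg1, P4ha2 and Adm lay higher in each c915dup library than in each WT and EV library. Ndrg1, a stress-response gene, had 68.0, 72.4 and 69.5 FPKM in c915dup, against 59.0, 63.2 and 62.1 FPKM in WT and 59.8, 64.6 and 60.4 FPKM in EV. P4ha2, a subunit gene of the collagen prolyl hydroxylase, had 44.1, 44.3 and 45.3 FPKM in c915dup, against 40.6, 39.1 and 39.1 FPKM in WT and 38.1, 41.1 and 39.5 FPKM in EV. Both were about equal in WT and EV, whose libraries overlapped. The vasodilator peptide gene Adm had 9.27, 8.84 and 8.78 FPKM in c915dup, against 7.81, 7.88 and 7.95 FPKM in WT and 8.49, 6.28 and 6.99 FPKM in EV. The log2 differences from EV were 0.18 ± 0.05 for Ndrg1, 0.17 ± 0.05 for P4ha2 and 0.28 ± 0.09 for Adm, with adjusted p of 0.198, 0.198 and 0.243 in limma.

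Egln1 and Egln3 encode oxygen-sensing hydroxylases that mark the HIF alpha subunit for degradation and are themselves HIF targets. Egln1 had 31.1, 30.4 and 29.9 FPKM in c915dup, against 26.5, 28.0 and 25.8 FPKM in WT and 29.2, 28.8 and 28.3 FPKM in EV. The 3 groups did not overlap, with c915dup highest and WT lowest, and no difference passed (0.18 ± 0.05 from WT, adjusted p = 0.223, and 0.08 ± 0.05 from EV, adjusted p = 0.62). Egln3 averaged 8.45 ± 0.079 FPKM in c915dup, 7.59 ± 0.63 FPKM in WT and 8.83 ± 0.49 FPKM in EV (SD, n = 3 each). The mTOR-inhibitor gene Ddit4 had 52.4, 43.3 and 40.4 FPKM in c915dup, against 52.9, 36.7 and 38.8 FPKM in WT and 47.3, 32.3 and 32.2 FPKM in EV. Library 1 was far above the other 2 in each group, and the Ddit4 difference of 0.29 ± 0.18 from EV became 0.36 (adjusted p = 0.00873) without these libraries.

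The other HIF targets differed little relative to their errors. Between c915dup and EV the log2 differences were 0.03 ± 0.08 for P4ha1, 0.12 ± 0.10 for Car9 and 0.12 ± 0.18 for Ankrd37, an ankyrin-repeat gene, and between c915dup and WT they were -0.0047 ± 0.08, 0.11 ± 0.10 and 0.15 ± 0.18. Hif1a itself had 59.7, 47.9 and 49.9 FPKM in c915dup, against 58.0, 53.7 and 57.1 FPKM in WT and 65.4, 56.5 and 58.5 FPKM in EV. Library 1 was the highest in each group, and the groups overlapped. Its log2 difference from EV was -0.20 ± 0.09 (adjusted p = 0.438), and -0.23 without the libraries numbered 1, where it passed (adjusted p = 0.0394). The transcript of the HIF subunit thus lay on the other side of 0 from most of the HIF targets in this comparison.

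Glycolytic enzymes and the other HIF targets were set side by side. In c915dup against EV, 1 of 15 tested enzymes rose (Eno2) and 1 of 12 HIF targets rose (Vegfa), with none lower. Of all genes, 0.964% rose and 0.126% fell there. Against WT, 1 of 15 enzymes and 0 of 12 HIF targets passed in limma, where 0.226% of all genes did. At an unadjusted p under 0.05 were 6 enzymes and 6 targets, as were 1244 of all 11933 genes. The median log2 difference from EV was 0.07 for the tested enzymes and 0.17 for the HIF targets, and from WT it was 0.11 and 0.17. The HIF targets thus had the larger median in both comparisons of c915dup. Between WT and EV the medians were -0.03 and -0.0014. Above 0 were 14 of 15 enzymes and 11 of 12 targets against EV (49.9% of all genes), and 13 of 15 and 11 of 12 against WT (50.6%). The c915dup libraries lay above all EV libraries for 6 enzymes and 5 targets (9.29% of all genes), and above all WT libraries for 7 enzymes and 8 targets (9.23%). Without the libraries numbered 1 the medians from EV were 0.04 for the enzymes and 0.16 for the targets. No test was made between these lists, whose members were picked by function.

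The summed level of the 16 enzymes was 5508, 5555 and 5524 FPKM in c915dup, against 5214, 5183 and 5045 FPKM in WT and 5148, 5428 and 5278 FPKM in EV. That of the 12 HIF targets was 465, 432 and 430 FPKM in c915dup, against 404, 379 and 375 FPKM in WT and 404, 386 and 377 FPKM in EV. Both sums were higher in each c915dup library than in each other library. As a share of all FPKM in a library, the enzymes made up 1.54% to 1.63% in c915dup, which overlapped with 1.47% to 1.58% in EV and lay above 1.48% to 1.53% in WT, while the HIF targets made up 0.127% to 0.130% in c915dup, against 0.110% to 0.117% in WT and 0.111% to 0.115% in EV. The HIF targets thus stood apart on both scales.

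The libraries numbered 1 stood apart in the members about as often as in genes at large. In 11 of the 32 tested members (34.4%) the library numbered 1 was the highest in all 3 groups, beside 27.4% of all genes, and in 5 (15.6%) it was the lowest, beside 12.7%. The 11 were Hk2, Pfkp, Aldoa, Gapdh, Pgam1, Slc2a1, Pdk1, Bnip3, Ddit4, P4ha1 and Hif1a, and the 5 were Eno1, Pkm, Ldha, Vegfa and Ndrg1. Each group held 1 such library, with shifts that differed in size between groups (for Bnip3 a log2 shift from the others of 0.38 in c915dup, 0.15 in WT and 0.22 in EV), and what sets these libraries apart is not given in the labels.

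With a term for the libraries numbered 1 in limma's model, 9 members passed upward and 2 downward between c915dup and EV, where 5.54% of all genes passed, 3.44% upward and 2.10% downward. They were Eno2, Aldoa, Pfkl, Slc2a1, Vegfa, Ndrg1, P4ha2, Bnip3 and Ddit4 upward, and Pfkfb3 and Hif1a downward. Against WT, 13 passed upward (Eno2, Aldoa, Hk2, Gpi1, Pgam1, Slc2a1, Pdk1, Vegfa, Higd1a, Bnip3, Ndrg1, P4ha2 and Egln1), where 4.81% of all genes passed, 3.13% upward. Between WT and EV none passed, with 8 at an unadjusted p under 0.05 (1591 of all 11933 genes), where 1.22% of all genes passed. Leaving these 3 libraries out gave 7 upward and 2 downward against EV (3.54% of all genes, 2.14% upward and 1.40% downward), 9 upward against WT (3.08%, with 1.67% upward) and none between WT and EV (0.726%). In this reduced comparison of WT and EV, 7 of the 32 tested members lay above 0, against 13 with all libraries. Between WT and EV, a block by library number gave no call among the members either, while the share of all genes passing became 0.804%.

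**Figure D5:**
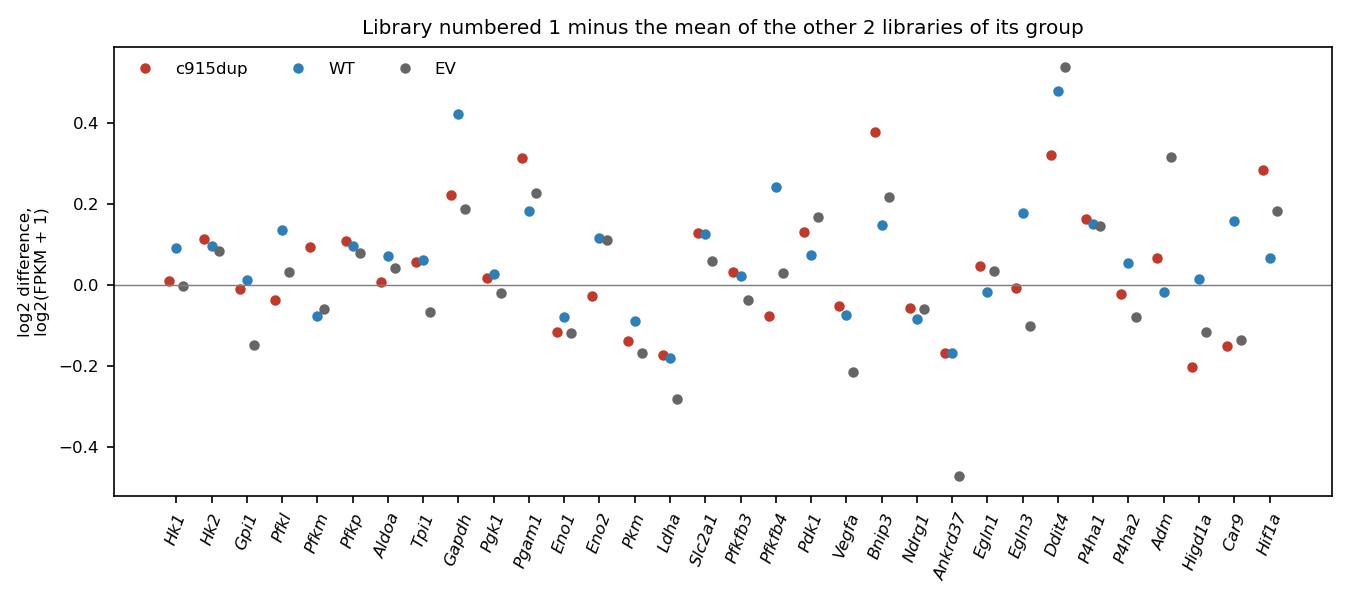
Log2 difference, on the log2(FPKM + 1) scale, between the library numbered 1 and the mean of the other 2 libraries of its group, for the 32 tested members; each point is 1 group. Ddit4, Gapdh and Pgam1 lie above 0 in all 3 groups and Ldha, Pkm and Eno1 below 0 in all 3.

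Promoter windows are shown for the 4 members that passed and for Bnip3. Bnip3 did not pass in the fit without a block and was chosen for the number of HIF core motifs in its window. The window of Ldha, which did not pass either, held 5 ACGTG cores and is not shown. The sequences are the 250 bases upstream of the RefSeq start in GRCm38.p6, written along the gene's strand, and 33 of the 35 members had one (not Ndrg1 and Slc2a3). Capitals mark the HIF core motifs ACGTG and GCGTG found on either strand, so that CACGT and CACGC are the same cores on the opposite strand, and CACGTG holds ACGTG on both strands with 4 bases shared. The windows lie at chr6:124769674-124769923 on the minus strand (Eno2), chr4:119108495-119108744 on the plus strand (Slc2a1), chr17:46032378-46032627 on the minus strand (Vegfa), chr2:11553930-11554179 on the minus strand (Pfkfb3) and chr7:138909507-138909756 on the minus strand (Bnip3).
Eno2: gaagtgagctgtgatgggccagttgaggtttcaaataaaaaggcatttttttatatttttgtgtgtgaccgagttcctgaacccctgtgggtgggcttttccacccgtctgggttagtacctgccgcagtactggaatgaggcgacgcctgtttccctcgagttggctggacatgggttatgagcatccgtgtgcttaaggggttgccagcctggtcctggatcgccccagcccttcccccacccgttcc
Slc2a1: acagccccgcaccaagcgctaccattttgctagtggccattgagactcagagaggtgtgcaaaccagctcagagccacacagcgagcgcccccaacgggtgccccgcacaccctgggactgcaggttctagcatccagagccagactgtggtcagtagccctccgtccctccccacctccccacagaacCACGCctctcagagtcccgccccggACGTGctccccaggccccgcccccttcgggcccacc
Vegfa: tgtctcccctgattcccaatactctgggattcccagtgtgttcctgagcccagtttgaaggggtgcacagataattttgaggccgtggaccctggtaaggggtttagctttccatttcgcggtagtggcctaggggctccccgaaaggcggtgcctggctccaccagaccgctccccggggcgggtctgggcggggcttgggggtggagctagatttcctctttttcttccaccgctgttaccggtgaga
Pfkfb3: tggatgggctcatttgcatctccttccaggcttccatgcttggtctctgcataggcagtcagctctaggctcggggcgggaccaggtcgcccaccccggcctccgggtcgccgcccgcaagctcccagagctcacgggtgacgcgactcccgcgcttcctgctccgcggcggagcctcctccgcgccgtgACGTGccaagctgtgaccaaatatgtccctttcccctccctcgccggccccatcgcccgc
Bnip3: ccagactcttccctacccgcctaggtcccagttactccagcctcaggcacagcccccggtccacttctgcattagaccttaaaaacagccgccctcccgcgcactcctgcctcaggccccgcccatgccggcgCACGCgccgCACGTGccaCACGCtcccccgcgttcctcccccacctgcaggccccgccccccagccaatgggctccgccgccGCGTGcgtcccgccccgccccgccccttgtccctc

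The windows of Eno2 and Vegfa, which rose, held neither core, which says only that these letters are not in these 250 bases. That of Slc2a1, which rose, held a GCGTG on the opposite strand whose leftmost base lay 61 bases before the start, and an ACGTG 36 bases before it. That of Pfkfb3, which fell, held 1 ACGTG, 60 bases before the start, and that of Bnip3 held 5 cores between 117 and 35 bases before it. The RefSeq start lay within 100 bases of the deposited gene start for 19 of the 33 members with a window. It lay 4329, 5857 and 6492 bases away for Ldha, Ankrd37 and Hif1a. Over the members, 26 of 33 windows (78.8%) held at least 1 core, 10 of 16 (62.5%) for glycolytic enzymes and 10 of 11 (90.9%) for the other HIF targets. Of the windows of all tested genes 59.1% held one, and of all genes 42.1%. Median GC content also differed, at 57.0% for the enzymes, 69.6% for the other HIF targets and 60.4% for all tested genes, and its part in these shares was not tested.

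Genes of the same pathways outside the 35 were read from lists. Of 28 other glycolysis genes 16 were tested and none passed in any comparison in limma, with 5, 3 and 1 at an unadjusted p under 0.05 for c915dup minus EV, WT minus EV and c915dup minus WT, where 1365, 731 and 1244 of all 11933 genes were. With the term for libraries numbered 1, Pfkfb1, which encodes the liver and muscle form of the PFKFB enzymes, passed between c915dup and EV (3.66 FPKM in c915dup and 2.49 FPKM in EV, log2 0.43, adjusted p = 0.0286). Of 38 other hypoxia genes 30 were tested, and Edn1 was among those that passed between c915dup and EV. Edn1, the endothelin gene, averaged 2.37 FPKM in c915dup, 2.19 FPKM in WT and 1.34 FPKM in EV, and it rose by 0.52 ± 0.08 in c915dup over EV (adjusted p = 0.0208), a call that held in 4 of the 9 fits that left out a library. The difference of WT from EV was 0.45 ± 0.08 (adjusted p = 0.0993). All 3 libraries of each LMX1A group stood above all EV libraries for Edn1, while the difference of WT from EV was 0.01 ± 0.06 for Slc2a1 and 0.03 ± 0.07 for Vegfa.

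With the same term, Edn1, Fam162a, Ero1l and Kdm4b of the hypoxia list passed upward and Lox and Tfrc downward between c915dup and EV. Gys1 and Fam162a passed upward and Lox downward between c915dup and WT. Edn1 also passed upward between WT and EV with this term (adjusted p = 0.0374 in limma), but not without the libraries numbered 1 (0.138). Lox, the collagen-crosslinking oxidase gene, averaged 135 FPKM in c915dup, 152 FPKM in WT and 160.5 FPKM in EV. The hypoxia list's median log2 difference was 0.05 between c915dup and EV and 0.01 between c915dup and WT, and that of the other glycolysis genes was -0.03 and -0.05. None of 7 pentose phosphate genes and none of 2 tested gluconeogenesis genes passed in limma, with 1 of each at an unadjusted p under 0.05 between c915dup and EV. With the term, the glucose 6-phosphate dehydrogenase gene G6pdx passed downward between c915dup and WT (44.5 FPKM in c915dup and 49.9 FPKM in WT, log2 -0.16, adjusted p = 0.0446).

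Some values rest on genes that share sequence or position. Pfkm, Pfkp, Tpi1, Gapdh and Ankrd37 each overlap an expressed gene on the opposite strand (Senp1, Pitrm1, Spsb2, Iffo1 and Ufsp2), and Pkm overlaps the unclassified transcript Gm49759 on its own strand. The sources used here do not state whether strand entered the counting, so that their reads could have been shared. The copies Pgk1-rs7 and Pgam1-ps2 were listed at means of 2.32 and 2.37 FPKM beside Pgk1 and Pgam1. A second entry named Aldoa, with 1.57 to 3.29 FPKM, was not counted as the member.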

How the data were processed

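RNA of 9 libraries, 3 per group, was measured as FPKM per gene, and the deposited FPKM values were made by the authors. No header names the unit, which was taken from the values: library totals were 339489 to 358766, and value times length moved in equal steps. Per the submitters' processing notes, CASAVA 1.8, Trimmomatic, FastQC, HISAT2, RSEM and edgeR took part, on GRCm38; their roles are not stated there. BWA, TopHat and Cufflinks stand in the series' design text instead, and which set made the table is unresolved. A second deposited table held identical values in 148608 of 148608 cells. The c915dup columns are numbered 1, 3 and 4 and were tied to their group only. Depth was estimated from the step of the values and entered no test, so FPKM carry no counting interval here.

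Values were taken as log2(FPKM + 1), which understates changes of genes with low FPKM. A gene entered when 3 or more libraries held 1 FPKM or more (11933 of 55451). All 9 libraries entered 1 limma fit (limma 3.58.1, R 4.3.3; lmFit, eBayes with trend and robust) with 3 group means, two-sided p-values adjusted by Benjamini-Hochberg across these genes, threshold 0.05. The script was tested on simulated data. The members, lists and alternatives were chosen with earlier results of these data known. Values per library were given for members that passed with or without a block, and for the highest and the smallest p of each role. Alternatives were pseudocounts of 0.1 and 0.5, other filters, 3 scalings, a plain eBayes, fits of 2 groups, blocks by number, and leaving out each library or all those numbered 1. WT and EV libraries of the same number deviated together (r = 0.62, 0.39 and 0.26). Libraries 2 and 3 did so across numbers as well (r = 0.30 for WT 2 with EV 3 and 0.27 for WT 3 with EV 2). These values set library 1 apart but do not show that numbers 2 and 3 pair the libraries. The c915dup group shares only numbers 1 and 3 with each and was not taken as paired. Promoter windows came from RefSeq (GRCm38.p6). Python 3.11.15, pandas 2.3.3, numpy 2.4.6 and matplotlib 3.10.9 were used. 1 gene of the hypoxia list is not reported here.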

Additional observations from a re-analysis of the deposited data

How the results depend on the processing

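For the 34 member differences with an unadjusted p under 0.05 or a call under a block, 714 values under the alternatives were computed: 645 kept their direction and their side of the threshold, 39 passed anew, 30 no longer passed and 0 changed sign. Of the other 62 tested member differences, 27 changed sign under at least 1 alternative, the largest of these being 0.12. Between c915dup and EV, Ldha became -0.04 without EV library 1, and Gapdh and Pgam1 became -0.05 and -0.01 without c915dup library 1. With the replicate block by column number, P4ha1 and Pfkfb4 became -0.00091 and -0.03 there, and Car9 became -0.0049 between c915dup and WT. The 130 genes passing between c915dup and EV became 66 without the filter on low values and 64 in a fit of those 2 groups alone. The 42 between WT and EV became 24 and 27 there, and the 27 between c915dup and WT became 10 and 14. Between c915dup and WT 26 rose and 1 fell, whereas upper-quartile scaling gave 61 (50 and 11) and median centring 53 (39 and 14). Members passing between c915dup and EV became 1 without the filter, 1 with the 2 groups alone and 2 with a plain eBayes, and between c915dup and WT 2 under upper-quartile scaling. Leaving out 1 library gave 61 to 111, 19 to 40 and 8 to 36 genes for c915dup minus EV, WT minus EV and c915dup minus WT, and 1 to 3, 0 and 1 to 2 members. Without the 3 libraries numbered 1 the genes were 415, 85 and 361 and the members 9, 0 and 9.

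With the replicate block by column number, the genes passing were 227, 96 and 137 in the same order and the members 5, 0 and 6; c915dup library 4 has a number of its own and adds nothing there. With the replicate block of 2 levels, numbered 1 against the others, they were 661, 145 and 574 genes and 11, 0 and 13 members. The cause of these shifts was not tested. Aldoc, Slc2a3 and Slc16a3 stayed near or under 1 FPKM and were not tested.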
